A study of Mus musculus with 4 samples.

Results

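YAP (encoded by Yap1) and TAZ (Wwtr1), the 4 TEAD transcription factors and 4 widely used YAP target genes (Ctgf, Cyr61, Ankrd1 and Amotl2) were examined in 4 cultured mouse mammary tumor cell lines. These 10 genes were chosen by name, as effectors and transcriptional targets of the Hippo pathway, out of the 38713 genes of the expression table, and all 10 were found in it. The question the comparison addresses is how the tumor cells' gene expression differs with and without the stress kinases JNK1 and JNK2. The 2 JNK_WT lines carried the genotype p53-/- (floxed Trp53 deleted by Wap-Cre), and the 2 JNK_KO lines carried p53-/- JNK-/- (floxed Trp53, Mapk8 and Mapk9 deleted by the same transgene). Loss of Trp53 was therefore shared by every line. Wap-Cre is switched on in luminal mammary epithelial cells by pregnancy and lactation, so the lines stand for tumors of parous C57BL/6 females in which recombination began in that compartment. Each line came from 1 tumor and gave 1 library, numbered 1 and 2 for JNK_WT and 1 and 3 for JNK_KO. Neither the age of the mice nor a sequencing batch was used here.

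The Hippo pathway restrains growth through a kinase cascade. MST kinases with their partner SAV1 activate LATS kinases with their partner MOB1, and LATS phosphorylates YAP and TAZ, which keeps these coactivators out of the nucleus. Unphosphorylated YAP and TAZ enter the nucleus, bind TEAD factors on DNA and raise transcription of genes such as Ctgf and Cyr61. In mammary epithelium the pathway is known for responding to cell density, stiffness and attachment. Because this control acts on the proteins, mRNA levels of Yap1 and Wwtr1 describe how much message is present and not how active the coactivators were, and no protein was measured here.

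TEAD factors recognise the core CATTCC, which reads GGAATG on the opposite strand. RefSeq promoter windows (GRCm38.p6, 250 bases before to 50 bases after a start site) were matched for 7 of the 10 genes and gave 10 windows. Ctgf, Tead1 and Tead4 had no entry. The core was present on either strand in 8 of the 10 windows and in windows of 6 of the 7 genes, Tead2 being the one without it, whereas 14.7% of all 32851 windows of this length held it. Windows of 1 gene can overlap, so the 10 windows are not independent. The AP1 motif TGANTCA, which reads the same on both strands apart from its central base, and the CArG box bound by SRF were in 0 of the 10 windows, beside 7.81% and 1.63% of all windows. A match is a string of letters and was not measured as binding in these cells. The stretches of 30 bases around the core are shown for the coactivator and target genes that had a match in their windows. Each is written 5′ to 3′ on the strand of its gene, with the core in capitals.
Cyr61, chr3:145650071-145650100, minus strand: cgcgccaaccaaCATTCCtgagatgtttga
Ankrd1, distal, chr19:36120037-36120066, minus strand: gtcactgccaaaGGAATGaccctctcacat
Ankrd1, proximal, chr19:36119950-36119979, minus strand: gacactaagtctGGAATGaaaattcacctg
Amotl2, chr9:102717727-102717756, plus strand: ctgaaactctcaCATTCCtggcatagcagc
Yap1, chr9:8004720-8004749, minus strand: cgggagtctgcaGGAATGtagcgacgcgca
Wwtr1, chr3:57576029-57576058, minus strand: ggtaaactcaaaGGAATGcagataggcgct

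The first base of the core lay 103 bases before the RefSeq start of Cyr61, 210 and 123 bases before that of Ankrd1, 65 bases before that of Amotl2, 141 bases before that of Yap1 and 136 bases before that of Wwtr1. On the GENCODE M21 annotation of GRCm38 the Cyr61, Yap1 and Wwtr1 stretches lay outside every transcript of their gene. Both Ankrd1 stretches fell in a noncoding part of an exon of 1 of its 6 transcripts, which starts farther upstream than the RefSeq window assumes. The Amotl2 stretch overlapped 5 of 14 transcripts, in a noncoding part of an exon of 2 and in an intron of 3. The other 4 of the 10 distinct cores were in windows of Tead3. The Cyr61 promoter is shown in full up to its start, as the target gene whose core lies outside any annotated transcript of the gene.
Cyr61 upstream region, chr3:145649986-145650235, minus strand: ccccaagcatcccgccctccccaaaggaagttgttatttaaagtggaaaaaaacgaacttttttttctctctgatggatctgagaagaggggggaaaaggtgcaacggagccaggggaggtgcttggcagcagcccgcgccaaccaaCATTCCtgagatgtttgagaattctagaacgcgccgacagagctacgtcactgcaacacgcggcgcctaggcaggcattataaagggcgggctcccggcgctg

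Expression was given as FPKM, fragments per kilobase of transcript scaled to the total of mapped fragments, which is a level per length, so levels of different genes can be set side by side. Differences are JNK_KO minus JNK_WT on the log2(FPKM + 1) scale with n = 2 lines per genotype, tested with limma over 12998 genes that reached 1 FPKM in at least 2 libraries. A gene was called at a Benjamini-Hochberg adjusted p under 0.05 with an absolute log2 difference over 0.75. FPKM summed to between 775960 and 921595 per library, the upper quartile of tested genes ranged from 33.2 to 34.3 FPKM, and low values put the depths within a factor of 1.41 of each other. Mapk8, which encodes JNK1, stood at 23.9 and 19.1 FPKM in JNK_WT lines and at 4.30 and 4.27 FPKM in JNK_KO lines. Mapk9, which encodes JNK2, stood at 29.7 and 24.3 FPKM against 12.6 and 8.66 FPKM, so both targeted genes were lower in both lines labelled JNK_KO. The limma test called neither Mapk8 (log2 difference -2.08, adjusted p = 0.191) nor Mapk9 (-1.28, adjusted p = 0.429). A gene that was not called may therefore still differ between genotypes. All 7 luminal markers examined, keratins and junction proteins such as Krt8 and Cdh1, were at 10 FPKM or more in every library. Of the leukocyte markers 6 of 7 stayed under 1 FPKM in every library, as did 5 of 5 endothelial markers.

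All 10 genes were expressed in every line, and none was called by the test, which did not call the targeted genes Mapk8 and Mapk9 either. Every gene of the 10 reached 1 FPKM in all 4 libraries and 9 reached 10 FPKM, the exception being Ankrd1 at 7.24 FPKM in JNK_WT replicate 1. The test called 0 of the 10, as it called 0% of all 12998 genes. At an unadjusted p under 0.05 there was 1 of the 10 (Ankrd1), beside 7.63% of all genes. An absolute log2 difference over 0.75 was reached by Ankrd1, higher in JNK_KO lines, and Tead4, lower in them, that is 2 of 10 beside 15.7% of all genes. Both lines of one genotype lay above both of the other for Wwtr1 and Ankrd1, higher in JNK_KO lines (18.3% of all genes did so), and for Tead4, lower in JNK_KO lines (16.7% of all genes). The remaining 7 genes overlapped between genotypes. The median log2 difference of the 10 genes was 0.12, beside 0.01 over all tested genes. In bulk RNA, fewer cells that express a gene and less message per cell cannot be told apart. With 2 lines against 2 an exact permutation test can give no p under 0.333.

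**Figure D1:**
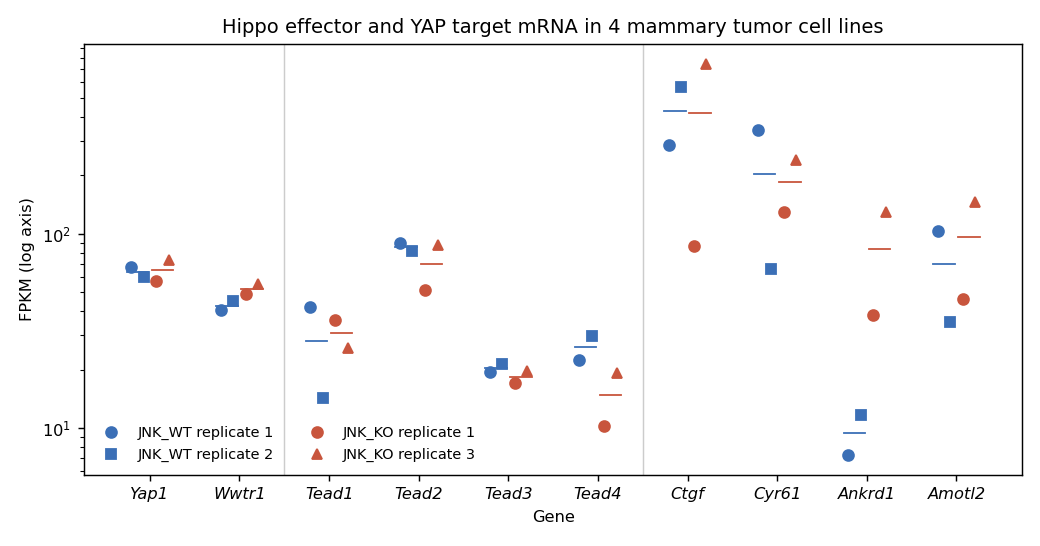
FPKM of the 10 genes on a log axis, with 1 point per cell line and a horizontal bar at the mean of the 2 lines of each genotype; vertical lines separate coactivators, TEAD factors and targets. Yap1, Wwtr1 and Tead3 points lie close together, Ctgf, Cyr61 and Amotl2 points of the 2 genotypes interleave, and both JNK_KO points of Ankrd1 (38.1 and 129 FPKM) lie above both JNK_WT points (7.24 and 11.6 FPKM).

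The coactivator messages differed little among the lines. Yap1 was at 67.4 and 59.7 FPKM in JNK_WT lines and at 56.8 and 72.8 FPKM in JNK_KO lines. The JNK_KO lines held both the lowest and the highest value, and the log2 difference was 0.020 (SE 0.25, 95% interval -0.64 to 0.68, adjusted p = 0.999). Wwtr1 was at 40.3 and 45.0 FPKM in JNK_WT lines and at 49.1 and 55.0 FPKM in JNK_KO lines. Both JNK_KO lines lay above both JNK_WT lines, by a log2 difference of 0.28 (SE 0.23, 95% interval -0.32 to 0.89, adjusted p = 0.940). These intervals leave room for differences of either sign. Yap1 exceeded Wwtr1 in every line, by ratios of 1.67 and 1.33 in JNK_WT lines and 1.16 and 1.32 in JNK_KO lines. The summed FPKM of the pair was 106 ± 2.06 (SD, n = 2) in JNK_WT lines and 117 ± 15.5 (SD, n = 2) in JNK_KO lines, with JNK_KO replicate 3 alone at 128 FPKM. Highest over lowest line was 1.28-fold for Yap1 and 1.37-fold for Wwtr1, and the log2 range of Wwtr1, the wider of the pair, exceeded that of only 19.2% of tested genes.

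Tead2 was the most abundant TEAD message in every line. It stood at 89.2 and 81.4 FPKM in JNK_WT lines and at 51.5 and 87.4 FPKM in JNK_KO lines, so JNK_KO replicate 1 was the low line and the other three lay close together. Its log2 difference was -0.34 (SE 0.33, 95% interval -1.22 to 0.54, adjusted p = 0.975). Tead2 made up 51.6% and 55.4% of the summed TEAD FPKM in JNK_WT lines and 44.8% and 57.4% in JNK_KO lines.

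Tead1 was the TEAD message that varied most within a genotype. It stood at 41.8 and 14.2 FPKM in JNK_WT lines, a 2.94-fold gap, and at 36.0 and 25.8 FPKM in JNK_KO lines, between the JNK_WT values. The log2 difference of 0.30 (SE 0.57, 95% interval -1.22 to 1.82, adjusted p = 0.999) became -0.44 without JNK_WT replicate 2. The ratio of Tead2 to Tead1 ranged accordingly from 2.13 to 5.72 in JNK_WT lines and from 1.43 to 3.39 in JNK_KO lines. Tead3 was the steadiest of the 10 genes, at 19.3 and 21.3 FPKM in JNK_WT lines and 17.1 and 19.7 FPKM in JNK_KO lines (log2 difference -0.14, SE 0.25, adjusted p = 0.999). Its log2 range over the 4 lines was wider than that of only 8.19% of tested genes.

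Tead4 was the TEAD message with the widest gap between genotypes. It stood at 22.3 and 29.9 FPKM in JNK_WT lines and at 10.3 and 19.3 FPKM in JNK_KO lines, means of 26.1 ± 5.36 and 14.8 ± 6.38 (SD, n = 2). Both JNK_KO lines lay below both JNK_WT lines, though JNK_KO replicate 3 came close to JNK_WT replicate 1. The log2 difference of -0.83 (SE 0.40, 95% interval -1.88 to 0.22) had an unadjusted limma p of 0.0969 and an adjusted p of 0.776, and it was smaller than the 0.85 between the 2 JNK_KO lines. It was -1.25 without JNK_KO replicate 3 and -0.40 without JNK_KO replicate 1.

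Tead4 lies on mouse chromosome 6 (GRCm38 128224288 to 128300823, minus strand), and most of its neighbours also had lower values in JNK_KO lines. Of 13 tested genes starting within 1 Mb, 10 were lower in JNK_KO lines, 9 of them without overlap between genotypes (16.7% of all genes). BC064078, counted in the 9, passed the 1 FPKM filter only through the JNK_WT lines, so its lack of overlap was fixed by the filter. Tspan11, higher in JNK_KO lines, passed only through those lines. The median log2 difference of the 13 neighbours was -0.84. The 628 tested genes of the whole chromosome had a median of -0.59, beside 0.01 for all tested genes. Tead4 itself stood at -0.83, with an SE of 0.40. DNA copy number was not measured in these files, and the part of position in the Tead4 difference was not tested.

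Summed over the 4 genes, TEAD message was 160 ± 18.3 FPKM (SD, n = 2) in JNK_WT lines and 134 ± 26.3 FPKM (SD, n = 2) in JNK_KO lines. JNK_KO replicate 1 was lowest at 115 FPKM, while JNK_KO replicate 3, at 152 FPKM, lay between the JNK_WT lines at 147 and 173 FPKM.

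**Figure D2:**
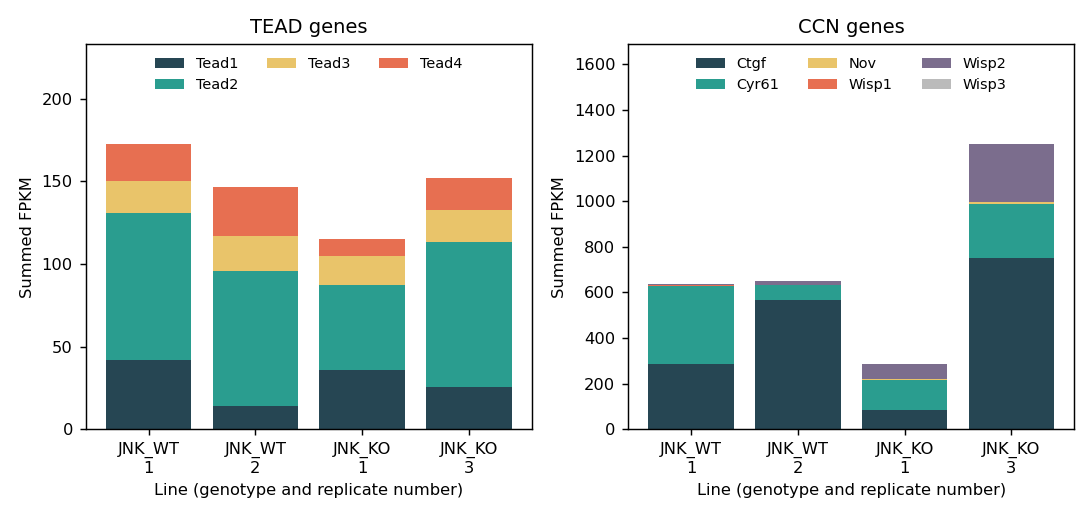
Summed FPKM of the TEAD genes (left) and of the CCN genes (right) in each cell line, stacked by gene. Tead2 is the largest TEAD segment in every line, and the CCN stack runs from 286 FPKM in JNK_KO replicate 1 to 1252 FPKM in JNK_KO replicate 3 with both JNK_WT lines between them.

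The target genes varied far more between lines than the coactivators did, and mostly within a genotype. Ctgf, also named Ccn2, encodes a secreted matricellular protein and was the most abundant of the 10 genes, at a mean of 422 FPKM, above 98.6% of tested genes. It stood at 286 and 566 FPKM in JNK_WT lines and at 86.3 and 751 FPKM in JNK_KO lines. The JNK_KO lines held the lowest and the highest value, an 8.70-fold gap, with both JNK_WT lines between them. Mean FPKM was nearly the same, 426 ± 198 against 418 ± 470 (SD, n = 2), while the log2 difference was -0.65 (SE 1.11, 95% interval -3.61 to 2.30, adjusted p = 0.999). Without JNK_KO replicate 1 that difference became 0.90. Of 7 basal and contractile markers, Krt14, Krt17 and Trp63 were also highest in JNK_WT replicate 2 and JNK_KO replicate 3. Krt5 and Cnn1 were highest in the same lines, but Krt5 was at 61.9 and 0.205 FPKM there and Cnn1 at 2.24 and 0.438 FPKM. Acta2 was lower in JNK_WT replicate 2 (3.19 FPKM) than in JNK_WT replicate 1 (7.36 FPKM). The summed FPKM of the list, most of it Krt14 and Krt17, was 26.1 and 734 in JNK_WT lines and 38.2 and 376 in JNK_KO lines. No gene of the list was at 10 FPKM or more in all libraries, and Myh11 stayed at or under 0.171 FPKM. The part of these markers in the Ctgf levels was not tested. A share of 18.3% of the distinct 40-base stretches of Ctgf transcripts, the length of the reads, also matched the antisense locus Gm15270. That locus was listed at 0.353 to 1.50 FPKM. The library strand setting was not given in the sources used here, so reads from the shared stretches cannot be assigned to 1 gene of the pair.

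Cyr61, also named Ccn1, is a close relative of Ctgf that carries the TEAD core shown above. It stood at 342 and 65.6 FPKM in JNK_WT lines and at 130 and 239 FPKM in JNK_KO lines. Here the JNK_WT lines held both extremes, with a 5.22-fold gap, and the JNK_KO lines lay between them. The log2 difference was 0.23 (SE 0.87, 95% interval -2.08 to 2.54, adjusted p = 0.999), whereas mean FPKM was lower in JNK_KO lines, 184 ± 76.9 against 204 ± 196 (SD, n = 2). Without JNK_WT replicate 2 the log2 difference was -0.95, and without JNK_KO replicate 3 it was -0.21. Ctgf and Cyr61, although both standard YAP readouts, ranked the lines differently. The ratio of Ctgf to Cyr61 was 0.834 and 8.64 in JNK_WT lines and 0.664 and 3.15 in JNK_KO lines, so replicate 1 of each genotype had more Cyr61 and the other line of each had more Ctgf.

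Amotl2 encodes an angiomotin family protein that binds YAP and restrains it, and is itself a YAP target. It stood at 104 and 35.1 FPKM in JNK_WT lines and at 45.9 and 146 FPKM in JNK_KO lines. Each genotype had a high and a low line, about 3 times apart (2.96-fold and 3.18-fold), and the log2 difference was 0.43 (SE 0.78, 95% interval -1.65 to 2.51, adjusted p = 0.999). It became -0.34 without JNK_WT replicate 2 and -0.39 without JNK_KO replicate 3.

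Ankrd1 was the target with the largest difference between genotypes. It encodes an ankyrin repeat protein known best from stressed heart muscle and is induced by YAP in many cultured cells. It stood at 7.24 and 11.6 FPKM in JNK_WT lines and at 38.1 and 129 FPKM in JNK_KO lines. Both JNK_KO lines lay above both JNK_WT lines, with means of 83.4 ± 64.2 against 9.43 ± 3.09 FPKM (SD, n = 2), an 8.85-fold ratio. The log2 difference was 2.80 (SE 0.66, 95% interval 1.06 to 4.55) with an unadjusted limma p of 0.0100, but the adjusted p was 0.409, so it did not pass the test. Leaving out any 1 library gave between 1.94 and 3.67, and could not change the direction because the genotypes did not overlap. The difference exceeded the gaps of 0.61 and 1.73 between lines of the same genotype. Its 6 tested neighbours within 1 Mb on chromosome 19 (36111961 to 36120099 for Ankrd1, minus strand) had a median log2 difference of -0.14, and its chromosome one of 0.13. The part of position in the Ankrd1 difference was not tested. The summed FPKM of 8 fibroblast markers was also higher in JNK_KO lines, at 108 and 178 against 11.8 and 1.73 in JNK_WT lines. Most of the JNK_KO sums was Dcn, at 79.7 and 162 FPKM. Col1a2 was highest in JNK_WT replicate 1, at 10.3 FPKM, beside 0.698 and 2.56 FPKM in JNK_KO lines. In that list Col1a1 stayed at or under 0.527 FPKM and Lum at or under 0.00840 FPKM in all libraries. Of its 4 tested genes, Dcn, Pdgfra and Pdgfrb passed the 1 FPKM filter only through the JNK_KO lines. Their lack of overlap was therefore fixed by the filter and is not set beside the share of all genes. The part of these markers in the Ankrd1 difference was not tested. Summed luminal markers were 3857 and 2808 FPKM in JNK_WT lines and 1174 and 2497 FPKM in JNK_KO lines.

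**Figure D3:**
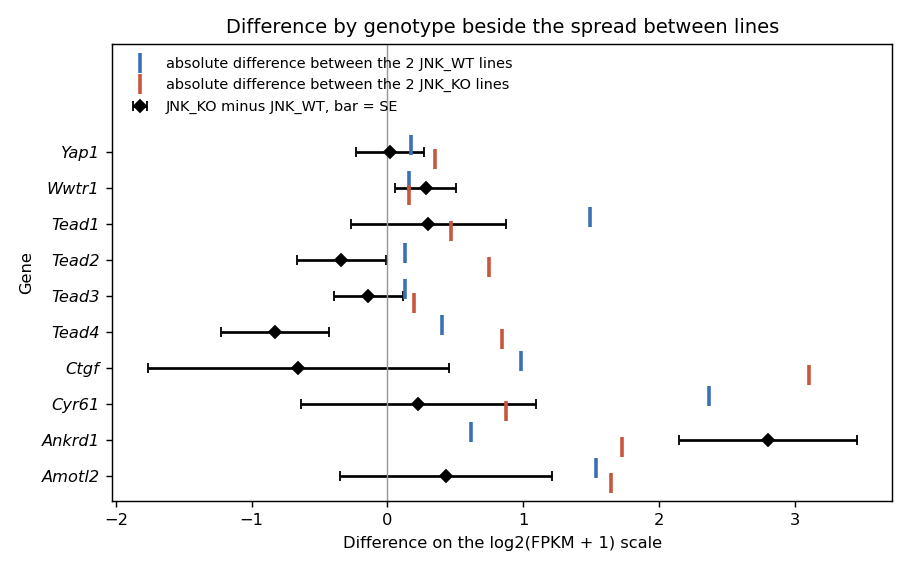
Log2 difference JNK_KO minus JNK_WT of each gene (black diamonds, bars are SE, n = 2 lines per genotype) with the absolute log2 difference between the 2 JNK_WT lines (blue ticks) and between the 2 JNK_KO lines (red ticks). Wwtr1 and Ankrd1 are the 2 genes whose genotype difference is larger than both within-genotype gaps, while the Ctgf gap between JNK_KO lines reaches 3.11.

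Across the 10 genes the median absolute log2 difference was 0.32 by genotype, beside gaps of 0.51 within JNK_WT and 0.80 within JNK_KO. For the 4 targets these medians were 0.54, 1.26 and 1.69, and for the coactivators and TEAD genes 0.29, 0.16 and 0.41. Over all tested genes they were 0.27, 0.43 and 0.33. The genotype difference exceeded both within-genotype gaps for 2 of the 10 genes (20.0%), beside 23.6% of all tested genes. JNK_KO replicate 3 held the highest value for 5 of the 10 genes and the lowest for 0, and JNK_KO replicate 1 held the lowest for 5 and the highest for 0. The 4 targets summed to 739 and 678 FPKM in JNK_WT lines, whereas the JNK_KO lines stood at 300.2 and 1264 FPKM, one on either side of them. The 2 JNK_KO lines therefore differed from each other in these genes more than the genotypes did.

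**Figure D4:**
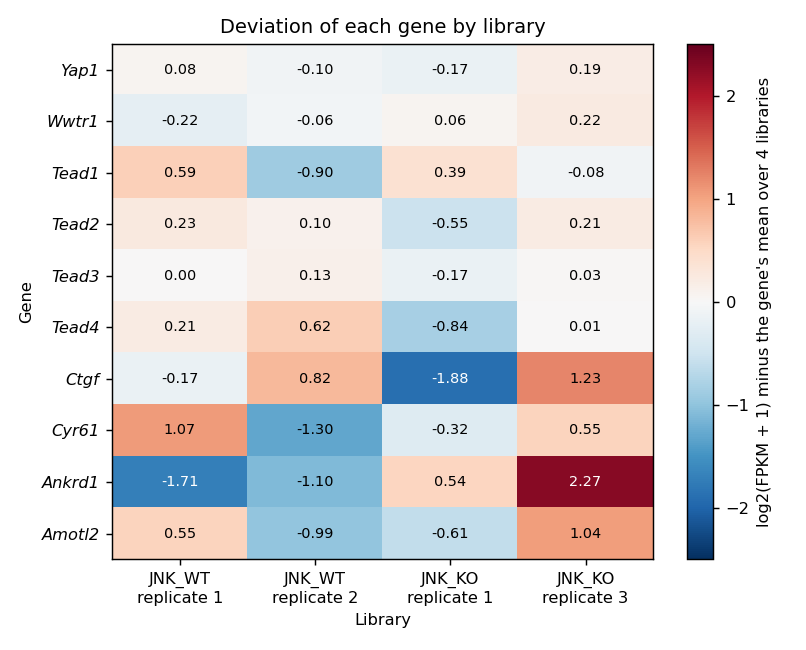
Deviation of each gene in each library from its own mean over the 4 libraries, on the log2(FPKM + 1) scale, with red above and blue below the mean. Coactivator rows are pale, target rows are strongly coloured, and within each genotype the sign for Cyr61 and Amotl2 differs between lines.

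The expression patterns most like those of the variable targets came from outside the 10 genes. Likeness was the Euclidean distance between deviations of log2(FPKM + 1) from each gene's mean over the 4 libraries, among 9904 genes with a mean of at least 5 FPKM, and with 4 points per gene it is a description. Closest to Ctgf were Papl (distance 0.16) and the predicted gene Gm22877 (0.21), while the closest of the 10 was Tead4 (1.66). Papl stood at 3.91 and 7.42 FPKM in JNK_WT lines and at 0.456 and 11.1 FPKM in JNK_KO lines. Closest to Cyr61 were the stress-inducible gene Gadd45b (0.35) and the nuclear long noncoding RNA Malat1 (0.36), and of the 10 Amotl2 (0.83). Gadd45b stood at 80.5 and 18.2 FPKM in JNK_WT lines and at 25.7 and 57.3 FPKM in JNK_KO lines. Closest to Ankrd1 were Bst1, an ADP-ribosyl cyclase of the cell surface (0.57), and the growth factor receptor gene Fgfr2 (0.67). Bst1 stood at 3.06 and 4.71 FPKM in JNK_WT lines and at 24.1 and 95.1 FPKM in JNK_KO lines, and Wwtr1 was the closest of the 10 at a distance of 2.78.

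Of the 51 other Hippo pathway and target genes examined, 45 were tested, 0 were called and 6 had an unadjusted limma p under 0.05 (7.63% of all genes did). Without overlap between genotypes 8 of the 45 were higher and 9 lower in JNK_KO lines, close to the 18.3% and 16.7% of all genes, and the median log2 difference was -0.01. Nov and Foxf2, counted in the 8 and in the 6, passed the 1 FPKM filter only through the JNK_KO lines. Their lack of overlap was fixed by the filter. The kinase module upstream of YAP was split, with 3 of its 7 genes at higher and 4 at lower values in JNK_KO lines and a median log2 difference of -0.24. The 4 lower genes did not overlap between genotypes, beside 16.7% of all genes, and none of the module was called. Mob1a, a LATS cofactor, stood at 121 and 97.2 FPKM in JNK_WT lines and at 64.9 and 70.7 FPKM in JNK_KO lines (log2 difference -0.67, SE 0.24, unadjusted limma p of 0.0408, adjusted p = 0.617). Sav1, the scaffold of the MST kinases, stood at 52.0 and 49.6 FPKM against 30.1 and 37.3 FPKM (-0.58, SE 0.24, adjusted p = 0.698). Lats1 stood at 18.8 and 25.7 FPKM against 16.7 and 17.9 FPKM (-0.33, SE 0.28, adjusted p = 0.950), so the groups were separated by a small gap. Mob1b, named after its values were seen, was the fourth gene, at -0.24. Stk3 and Stk4, which encode the MST kinases, and Lats2 overlapped between genotypes, at 0.097, 0.024 and 0.18.

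Upstream regulators showed no common direction. Of 20 genes 18 were tested, with 2 higher and 3 lower in JNK_KO lines without overlap (18.3% and 16.7% of all genes) and a median of -0.02. Amot, the angiomotin related to Amotl2, stood at 20.0 and 6.21 FPKM in JNK_WT lines and at 2.80 and 9.81 FPKM in JNK_KO lines (log2 difference -0.94, SE 0.77, adjusted p = 0.942), and its groups overlapped. Llgl1, a polarity gene, stood at 34.2 and 39.6 FPKM against 12.6 and 31.4 FPKM (-0.85, SE 0.48, adjusted p = 0.846), with JNK_KO replicate 1 well below the others. Ptpn14, a phosphatase that binds YAP, stood at 10.8 and 11.1 FPKM against 13.8 and 18.9 FPKM (0.52, SE 0.29, adjusted p = 0.842). The protocadherin genes Fat4 and Dchs1 stayed under 1 FPKM in every library. Among the vestigial-like cofactors that compete with YAP for TEAD, Vgll4 stood at 21.8 and 83.0 FPKM in JNK_WT lines and at 48.6 and 76.3 FPKM in JNK_KO lines (0.50, SE 0.70, adjusted p = 0.995). Vgll3 was at 2.55 to 11.4 FPKM with overlap (-0.24, SE 0.72, adjusted p = 0.999), and Vgll1 and Vgll2 peaked at 0.371 and 0.0132 FPKM.

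Other YAP targets divided in direction. Of 18 genes 17 were tested, with 5 higher and 2 lower in JNK_KO lines without overlap (18.3% and 16.7% of all genes), 3 at an unadjusted p under 0.05 (7.63% of all genes) and a median log2 difference of -0.0028. Tgfb2, a growth factor, stood at 1.19 and 0.828 FPKM in JNK_WT lines and at 8.45 and 4.68 FPKM in JNK_KO lines (1.87, SE 0.39, adjusted p = 0.347). Foxf2, a transcription factor of mesenchymal cells, was at 0.0249 and 0.250 FPKM against 12.2 and 1.67 FPKM (2.39, SE 0.83, adjusted p = 0.608), with JNK_KO replicate 1 far above the rest. Foxf2 passed the filter only through the JNK_KO lines, so its lack of overlap, counted in the 5, was fixed by the filter. Gadd45a, a stress and p53 response gene, went the other way at 120 and 94.3 FPKM against 23.7 and 36.1 FPKM (-1.83, SE 0.31, adjusted p = 0.256). Ccdc80 stayed at or under 0.805 FPKM.

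The remaining CCN genes, relatives of Ctgf and Cyr61, had a median log2 difference of 2.57 over 3 tested genes. With 3 genes that median is the value of Nov, which passed the 1 FPKM filter only through the JNK_KO lines. The list is therefore not ranked against the other Hippo lists. Wisp2, also named Ccn5, stood at 5.90 and 18.0 FPKM in JNK_WT lines and at 63.8 and 255 FPKM in JNK_KO lines (3.49, SE 0.85, unadjusted limma p of 0.0118, adjusted p = 0.430). Nov, also named Ccn3, was at 0.0602 and 0.0882 FPKM against 4.43 and 6.49 FPKM (2.57, SE 0.33, unadjusted limma p of 0.000921, adjusted p = 0.189). Both JNK_KO lines lay above both JNK_WT lines for Wisp2, as for Ankrd1 and for the fibroblast marker sum given above, which was mostly Dcn in JNK_KO lines. For Nov the same order was fixed by the filter, as it was for Dcn. The part of the fibroblast marker sum in the Wisp2 and Nov differences was not tested. Wisp1 overlapped between genotypes at 0.245 to 4.11 FPKM (-0.19, SE 0.74, adjusted p = 0.999), and Wisp3 peaked at 0.0531 FPKM. Ctgf and Cyr61 together made up 98.4% and 97.2% of the summed CCN FPKM in JNK_WT lines and 75.7% and 79.0% in JNK_KO lines.

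Genes around Yap1 were higher in JNK_KO lines although Yap1 was not. Yap1 lies on chromosome 9 (GRCm38 7931999 to 8004596, minus strand). Of 10 tested genes starting within 1 Mb, 8 were higher in JNK_KO lines, 7 of them without overlap between genotypes (18.3% of all genes). An unadjusted limma p under 0.05 was found for 5 (7.63% of all genes). Mmp7, counted in the 7 and in the 5, stood at 0.591 and 0.632 FPKM in JNK_WT lines and at 3.69 and 5.80 FPKM in JNK_KO lines. It passed the 1 FPKM filter only through the JNK_KO lines, so its lack of overlap was fixed by the filter. The median log2 difference of the 10 neighbours was 1.26, beside 0.11 for the 717 tested genes of the chromosome and 0.020 for Yap1. Mmp3, a matrix metalloproteinase gene, stood at 2.09 and 8.15 FPKM in JNK_WT lines and at 51.2 and 28.7 FPKM in JNK_KO lines (2.89, SE 0.64, adjusted p = 0.378). Birc3, which encodes the apoptosis inhibitor cIAP2, stood at 14.7 and 9.01 FPKM against 72.6 and 46.1 FPKM (2.23, SE 0.38, adjusted p = 0.256). Mmp13, a collagenase gene, stood at 6.47 and 4.65 FPKM against 20.5 and 38.1 FPKM (2.16, SE 0.41, adjusted p = 0.299). Neighbours of the other genes had medians between -0.84 for Tead4 and 0.30 for Wwtr1. Higher values in JNK_KO lines were found for 7 of 7 neighbours of Wwtr1, beside 6680 of all 12998 tested genes. Of these 7, 3 did not overlap between genotypes (18.3% of all genes) and 0 had an unadjusted limma p under 0.05 (7.63% of all genes).

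**Figure D5:**
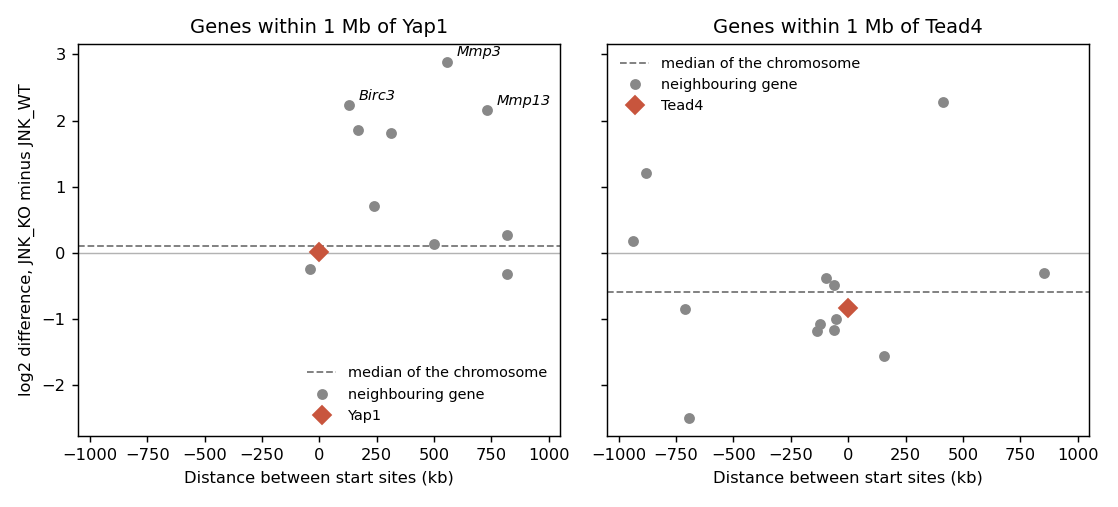
Log2 difference JNK_KO minus JNK_WT of tested genes within 1 Mb of Yap1 (left) and Tead4 (right), by distance between start sites along the strand of the gene in kb; the dashed line is the median of the chromosome. Yap1 lies near 0 while 5 of its 10 neighbours lie above 1.8, and Tead4 lies among neighbours with lower values in JNK_KO lines. Mmp7 and Tspan11 passed the 1 FPKM filter only through the JNK_KO lines, and BC064078 only through the JNK_WT lines.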

How the data were processed

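RNA was sequenced from established tumor cell lines, 1 library per line, and groups were taken from the labels. The authors trimmed single-end reads, sampled them with seqtk, aligned them to mm10 with TopHat2 2.0.14 and Bowtie2 and estimated expression with Cufflinks 2.2.1. The deposited values were FPKM per gene and library, not pooled. The annotation and strand setting were not given in the sources used here. Of 38741 rows, 27 with calendar dates as symbols and 1 with no value were left out. FPKM keeps no read count, so no count model or counting interval was used; low values gave depths of 1.00 to 1.41 relative to JNK_KO replicate 1, and precision was judged from the spread between lines.

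Genes with at least 1 FPKM in at least 2 libraries were tested on log2(FPKM + 1), which understates changes of low genes, with limma 3.58.1 (eBayes with an intensity trend, two-sided, Benjamini-Hochberg over 12998 genes) in R 4.3.3. The study's Cuffdiff needs alignments and was not run. The moderated test had 4.48 degrees of freedom. A gene under 1 FPKM in both lines of 1 genotype was tested only where both lines of the other reached 1 FPKM. Its lack of overlap was then fixed by the filter, and the shares over all genes include such genes. The script was tested on simulated data. Each line came from a separate tumor. The p-values rest on the spread between the 2 lines of a genotype, moderated toward that of other tested genes of similar level. Positions came from GENCODE M21 (GRCm38, the build of mm10) for 12754 tested genes, 587 through older symbols. Python 3.11.15, pandas 2.3.3 and matplotlib 3.10.9 were used. Motifs were searched on both strands.

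The 10 genes and the other lists were chosen with earlier results of these data known. Named were the 10 genes, Mapk8 and Mapk9, the 3 largest absolute differences in each other Hippo list and near Yap1, list genes under 1 FPKM throughout, and the 2 most alike genes for Ctgf, Cyr61 and Ankrd1. A planned protein comparison was not made here. Other pseudocounts, filters, scalings, variance models and fits without each library were run as alternatives.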

Additional observations from a re-analysis of the deposited data

How the results depend on the processing

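Under all 12 alternatives 0 of the 10 genes were called. Outside the fits without 1 library, 0 of 60 gene and setting pairs reversed direction. The number of genes without overlap between genotypes was 3 under both other filters and 4 under upper-quartile scaling and under quantile normalization, where Tead3, lower in JNK_KO lines, was added. Without 1 library, 6 genes reversed in at least 1 of 4 fits, in which the lone line is assumed to vary like the others. Log2 differences then ranged from -0.16 to 0.20 for Yap1, from -0.44 to 1.05 for Tead1, from -0.71 to 0.037 for Tead2, from -2.21 to 0.90 for Ctgf, from -0.95 to 1.41 for Cyr61 and from -0.39 to 1.26 for Amotl2. The ranges that kept 1 direction were 0.20 to 0.36 for Wwtr1, -0.24 to -0.040 for Tead3, -1.25 to -0.40 for Tead4 and 1.94 to 3.67 for Ankrd1. For Wwtr1, Tead4 and Ankrd1, whose genotypes did not overlap, leaving out 1 library could not reverse the direction. The adjusted p of Ankrd1 ranged from 0.402 to 0.847 over 13 settings, the reported one included. Without 1 library the median log2 difference ranged from -0.25 to 0.28 for the 10 genes, from -0.39 to -0.15 for the kinase module and from -0.061 to 0.21 for the other YAP targets. The median of the other CCN genes, 2.57 as reported, was 3.61 with a pseudocount of 0.1, 3.35 with 0.5, 1.28 with no filter and 3.49 with a mean filter of 5 FPKM, the last 2 because the genes tested differ. No paired analysis was possible because the genotypes share only replicate number 1. With 2 lines per genotype, differences of the size seen for Ankrd1 did not reach the threshold, and read depth could not be weighed gene by gene.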
